A study of Saccharomyces cerevisiae with 36 samples.

Results

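The 9 genes described here make or break down trehalose, and they were followed in Saccharomyces cerevisiae under wall-disturbing compounds. They were chosen by name: TPS1, TPS2, TPS3 and TSL1 for the synthase complex, NTH1, NTH2 and ATH1 for the trehalases, and PGM2 and UGP1 for the supply of glucose phosphates. All 9 genes were found, each on 2 spots, among 5713 named genes on the array. The compounds were calcofluor white and congo red, dyes that bind wall polysaccharides, each at 0.02 or 0.1 mg/ml, and caffeine, a methylxanthine, at 2 or 20 mM. Total RNA from cells treated for 5, 15 or 90 min was hybridised with RNA of untreated yeast on 2-colour arrays. Every combination of drug, dose and time is called a condition, and the 18 conditions held 2 arrays each, 36 in all, described as biological replicates with exchanged dyes. Treated RNA carried Cy5 in replicate 1 and Cy3 in replicate 2, so dye and replicate are the same factor. The labels give no strain, genotype or medium. They name an untreated channel of the same time on most arrays, but the untreated channel of caffeine 20 mM 15 min replicate 1 is labelled 5 min. The treated channel of calcofluor white 0.02 mg/ml 15 min replicate 2 is labelled 90 min, and the title was followed. Labels of dose or time disagreed with each other on several arrays, and titles were followed there as well.

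Trehalose is a disaccharide that yeast stores as a reserve and stress protectant. Tps1 joins UDP-glucose and glucose 6-phosphate into trehalose 6-phosphate, Tps2 removes the phosphate, and Tps3 and Tsl1 are regulatory subunits of the same complex. Pgm2 interconverts glucose 6-phosphate and glucose 1-phosphate, and Ugp1 makes UDP-glucose from the latter. The neutral trehalases Nth1 and Nth2 split trehalose in the cytosol, and the acid trehalase Ath1 acts on trehalose outside the cytosol. Enzyme activity is also controlled after transcription, which arrays do not measure.

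Values below are log2 ratios of treated over untreated RNA, so 1 is a doubling, given for replicate 1 and replicate 2 and then as their mean ± SE (n = 2). The SE comes from limma, which pools the scatter of a gene across the whole set of arrays, so it does not describe the pair of arrays beside it. A gene rose or fell where its Benjamini-Hochberg adjusted p over all genes tested was below 0.05. Where 1 array of a condition was left out, the value is the remaining array corrected for the gene's difference between replicates elsewhere. Such a value is therefore not the remaining array's own ratio. A treated over untreated direction was assumed. The correlation between orientations was 0.58 and 0.70 for caffeine 20 mM at 15 and 90 min, which shows a common sign there but cannot tell a ratio from its inverse. It was negative in 13 of the 18 conditions, from −0.60 (congo red 0.1 mg/ml 15 min) to −0.0096 (caffeine 2 mM 15 min), so in these the values do not show a common sign and it was assumed. The lowest correlation between arrays of 1 orientation was −0.38. Among replicate 1 arrays, that of caffeine 2 mM 5 min had the lowest median correlation with the others, 0.158. That condition is given below with the sign of this array turned as well. Both spots of a member differed by a median of 0.06 (UGP1) to 0.20 (TPS1), against 0.10 over the 5670 genes with 2 spots.

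Of 159 member values tested over the 18 conditions, 12 rose and 0 fell. Of the 9 genes, 8 rose at least once: NTH1 in 4 conditions, UGP1 in 2, and TPS1, TPS2, TSL1, NTH2, ATH1 and PGM2 in 1 each. TPS3 passed in none, with condition means between −0.26 and 0.14. Caffeine at 20 mM accounted for 10 of the 12 rises, and calcofluor white at 90 min for the remaining pair. Calls over all genes were also most frequent in the conditions that held these rises. The shares were 31.1% and 44.4% after caffeine 20 mM at 15 and 90 min, against 1.2% at 5 min. After calcofluor white at 90 min they were 11.1% at 0.02 and 14.7% at 0.1 mg/ml, and in every other condition at most 5.15%. NTH1 had the widest range of condition means, 2.61, followed by the TSL1 spots at 1.82, NTH2 at 1.27 and UGP1 at 1.15. The TSL1 spots, with 1 of the 12 rises, followed retrotransposon genes and are treated separately further on.

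**Figure D1:**
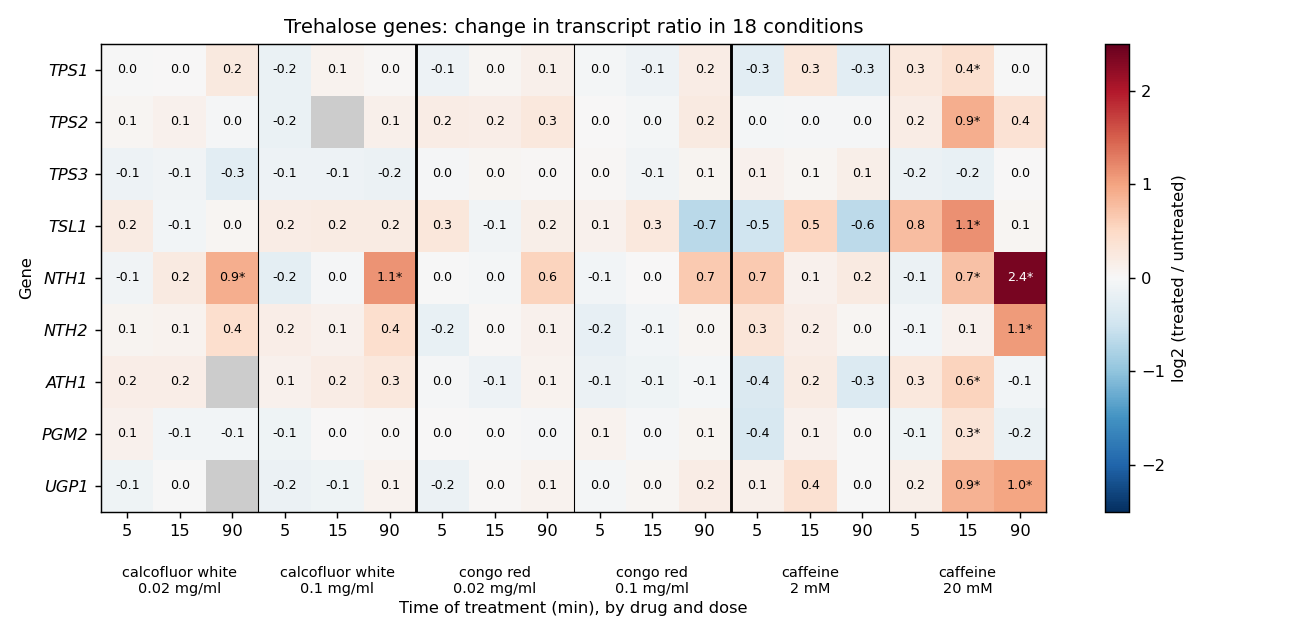
Mean log2 ratio of each of the 9 genes (rows) in each of the 18 conditions (columns), with n = 2 arrays; an asterisk marks an adjusted p below 0.05 and grey a value not tested because only 1 array had one. The asterisks lie in the caffeine 20 mM columns at 15 and 90 min and in the NTH1 row for calcofluor white at 90 min.

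After 15 min of caffeine at 20 mM, 7 of the 9 genes rose, among them genes of synthesis, breakdown and glucose phosphate supply. In this comparison 31.1% of all genes tested were called, 754 higher and 883 lower, and the median of the members was 0.56 against 0.02 over all genes. TPS2, the phosphatase subunit, stood at 1.11 and 0.71 on the arrays, a mean of 0.91 ± 0.15 and 1.88-fold (adjusted p = 0.00015). UGP1 stood at 1.03 and 0.72, a mean of 0.88 ± 0.12 and 1.83-fold (adjusted p = 1.76e-05). Both genes were clearly above 0 on each array, and these rises passed under every alternative that tested them.

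TPS1, the synthase subunit, was at 0.50 and 0.31, a mean of 0.40 ± 0.15 (adjusted p = 0.048). PGM2 was at 0.38 and 0.29, a mean of 0.33 ± 0.12 (adjusted p = 0.0423). The changes of these genes were the smallest among those that passed, 1.32-fold and 1.26-fold. The PGM2 call was lost with the first spot alone (adjusted p = 0.072) and with the last alone (adjusted p = 0.0728). That of TPS1 was lost with the last spot alone (0.28, adjusted p = 0.257), with array weights and with uncentred values. Both calls were also lost with spots at the floor value kept and with all arrays scaled to one spread. The acid trehalase gene ATH1 was at 0.56 on both arrays, a mean of 0.56 ± 0.15 (adjusted p = 0.00849). NTH1 was at 0.07 and 1.40, a mean of 0.73 ± 0.20 (adjusted p = 0.00749), so nearly all of its rise lay on the array with treated RNA in Cy3. Its dye term, the part of its ratio that follows the labelling and the replicate number alike, was −0.26 over all arrays (adjusted p = 6.22e-05), the largest of the 9 genes in size. NTH2 did not pass, at −0.09 and 0.30, and neither did TPS3, at −0.26 and −0.13 and the only gene below 0 on both arrays.

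The spots annotated to TSL1 were at 1.64 and 0.64 in the same condition, a mean of 1.14 ± 0.32 (adjusted p = 0.00955). These spots followed the Ty retrotransposon Gag genes, as described further on, and without TSL1 the count was 6 of 8. Without the replicate block, TPS1, NTH1, ATH1 and PGM2 no longer passed, with adjusted p of 0.13, 0.125, 0.0551 and 0.28. Without replicate 1 the values that no longer passed were TPS1 0.22, TSL1 0.82, ATH1 0.45 and PGM2 0.45, and without replicate 2 they were TPS1 0.58, NTH1 0.30 and PGM2 0.22.

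After 90 min at 20 mM, the rises lay in NTH1, NTH2 and UGP1, and in none of TPS1, TPS2 and TPS3 of the synthase complex. The share of all genes called was 44.4%, 1161 higher and 1180 lower, against 3 of the 9 genes. NTH1 reached 2.04 and 2.69, a mean of 2.37 ± 0.20 and 5.15-fold (adjusted p = 8.51e-09), its highest value in the series. NTH2 reached 0.999 and 1.13, a mean of 1.07 ± 0.16 and 2.09-fold (adjusted p = 1.47e-05). Both neutral trehalase genes were thus higher on every array of this condition than on any of the other 34 arrays. UGP1 was at 1.12 and 0.86, a mean of 0.99 ± 0.12 and 1.99-fold (adjusted p = 1.64e-06). These 3 rises passed under every alternative that tested them, but their size depended on array scaling: with all arrays at one spread the means were 1.36 for NTH1, 0.62 for NTH2 and 0.60 for UGP1. NTH1 and NTH2 are paralogs, and whether a spot of one also binds transcript of the other was not tested.

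Among the remaining genes at 90 min, TPS1, TPS3, ATH1 and the TSL1 spots lay close to 0. TPS1 was at 0.02 and −0.03, TPS3 at 0.03 and −0.01, ATH1 at −0.01 and −0.10, and the spots of TSL1 at 0.01 and 0.10. All of these values lay between −0.1044 and 0.1013. TPS2 kept 0.48 and 0.23, a mean of 0.35 ± 0.15 (adjusted p = 0.0621). PGM2 was at 0.14 and −0.49, a mean of −0.18 ± 0.12 (adjusted p = 0.251), and its replicates differed in sign.

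**Figure D2:**
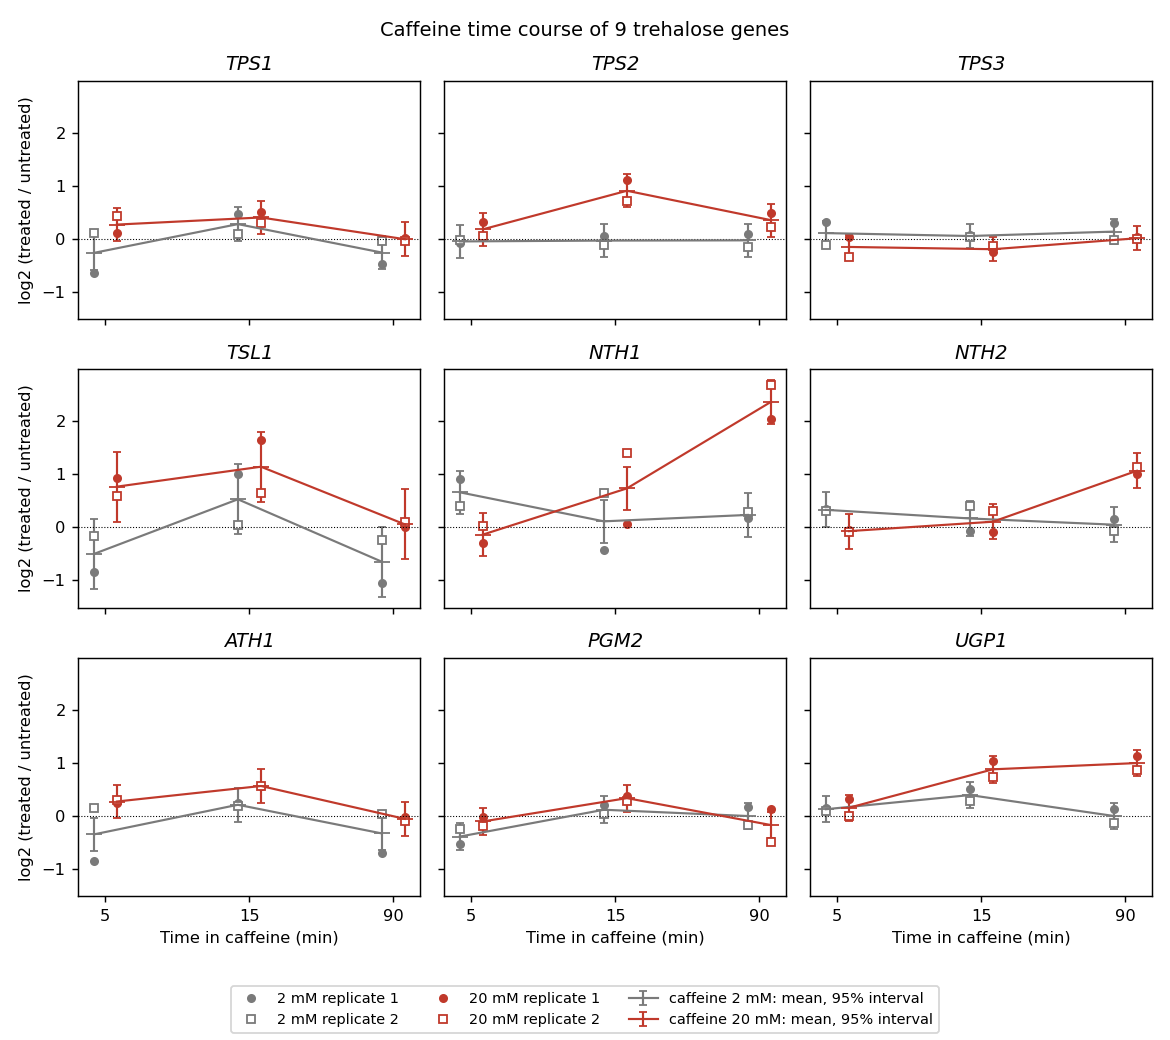
Log2 ratio of each gene after caffeine 20 mM and 2 mM at 5, 15 and 90 min, evenly spaced on the time axis; dots are replicate 1, open squares replicate 2, and the line is the mean with its 95% interval (red 20 mM, grey 2 mM). At 20 mM NTH1 and NTH2 are highest at 90 min, TPS2, TSL1 and ATH1 are highest at 15 min, and UGP1 is about level from 15 to 90 min.

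At 5 min of 20 mM caffeine 0 of 9 genes passed (limma), with 1 at an unadjusted p below 0.05 and 1.2% of all genes called. With array weights the TSL1 spots passed (adjusted p = 0.0248). The member means lay between −0.15 and 0.77. The highest was that of the TSL1 spots, at 0.94 and 0.60, and the next highest were TPS1 (0.11 and 0.43) and ATH1 (0.24 and 0.30). NTH1 was at −0.30 and 0.03 and NTH2 at −0.06 and −0.09, so neither neutral trehalase gene was above 0.03 on any array.

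The change between 15 and 90 min was tested directly, and 35.7% of all genes differed. Among the 9 genes 5 did. NTH1 was higher at 90 min by 1.63 ± 0.28 (adjusted p = 0.000184) and NTH2 by 0.96 ± 0.22 (adjusted p = 0.00273). TPS2 was lower by −0.55 ± 0.21 (adjusted p = 0.0481), ATH1 by −0.62 ± 0.21 (adjusted p = 0.0306) and PGM2 by −0.51 ± 0.17 (adjusted p = 0.0269). The neutral and acid trehalase genes therefore moved in opposite directions between these times. TPS1 (−0.41), TSL1 (−1.09), TPS3 (0.21) and UGP1 (0.12) did not pass. Without the replicate block, TPS2, ATH1 and PGM2 lost the call (adjusted p = 0.0999, 0.12 and 0.21), and with all arrays scaled to one spread 0 genes passed (NTH1 0.80). Leaving out caffeine 20 mM 15 min replicate 1 left NTH1 alone (NTH2 0.66, TPS2 −0.35, ATH1 −0.51, PGM2 −0.62), as did leaving out 90 min replicate 2 (NTH2 0.80, TPS2 −0.43, ATH1 −0.46, PGM2 −0.34). PGM2 (−0.39) also lost the call without 15 min replicate 2, and TPS2 (−0.68) without 90 min replicate 1.

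Caffeine at 2 mM gave 0 calls among the 9 genes (limma) at 5, 15 and 90 min, where 5.15%, 0.54% and 0.0% of all genes were called and 4, 1 and 1 members had an unadjusted p below 0.05. At 15 min UGP1 was at 0.50 and 0.28, a mean of 0.39 ± 0.12 (adjusted p = 0.256), and the TSL1 spots were at 1.01 and 0.05. At 90 min NTH1 was at 0.17 and 0.29 and NTH2 at 0.16 and −0.06. The largest means at that time were those of the TSL1 spots, at −1.05 and −0.24, and of ATH1, at −0.70 and 0.03, the 1 member with an unadjusted p below 0.05 (adjusted p = 0.449). ATH1 differed in sign between its replicates there. At 5 min NTH1 was at 0.92 and 0.40 (adjusted p = 0.0535), PGM2 at −0.53 and −0.26 (adjusted p = 0.0627) and ATH1 at −0.85 and 0.15. NTH1 passed where only genes with a value on all arrays were used (adjusted p = 0.0487). With the sign of replicate 1 turned, the mean of ATH1 changed from −0.35 to 0.50 and passed (adjusted p = 0.0319), and that of NTH1 from 0.66 to −0.26. In the fit without replicate 2, NTH1 was 1.21, ATH1 −0.76, PGM2 −0.70 and TPS1 −0.59, each corrected as described above. The values of this condition thus rest on which array is used.

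Direct tests between the doses named fewer genes at 15 than at 90 min. At 15 min TPS2 alone was higher at 20 than at 2 mM, by 0.94 ± 0.21 (adjusted p = 0.0127), with 4.82% of all genes called. The difference was 0.49 ± 0.17 for UGP1 (adjusted p = 0.105) and 0.62 ± 0.28 for NTH1 (adjusted p = 0.223), short of the threshold. The TPS2 call was lost without the replicate block (adjusted p = 0.0552), without replicate 1 of 20 mM (0.74) and without replicate 2 of 2 mM (0.85). At 90 min 23.2% of all genes differed. NTH1 was higher at 20 mM by 2.13 ± 0.28 (adjusted p = 1.08e-05), NTH2 by 1.02 ± 0.22 (adjusted p = 0.00192) and UGP1 by 0.998 ± 0.17 (adjusted p = 0.000218). Only NTH1 passed when arrays were scaled to one spread, with a difference of 1.04.

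After 90 min of the dyes, NTH1 was the 1 gene that passed, and it did so with calcofluor white. At 0.1 mg/ml it was at 0.76 and 1.501, a mean of 1.13 ± 0.20 and 2.19-fold (adjusted p = 0.000414), with 14.7% of all genes called. At 0.02 mg/ml it was at 0.43 and 1.37, a mean of 0.90 ± 0.20 and 1.87-fold (adjusted p = 0.00405), with 11.1% called. NTH1 was above 0 on all 4 arrays, and higher on the array with treated RNA in Cy3 at either dose. At the lower dose the call was lost without the replicate block (adjusted p = 0.146), without replicate 2 (0.68) and in the fit of 34 arrays (adjusted p = 0.094). That replicate had 16.1% of its named spots at the floor, the highest share of the 36 arrays, and was left out of that fit with caffeine 2 mM 5 min replicate 1. ATH1 and UGP1 had a value on 1 array there and were not tested.

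Congo red gave 0 calls among the 9 genes at 90 min (limma), with 1.38% of all genes called at 0.1 mg/ml and 0.691% at 0.02 mg/ml, and with 2 and 1 members at an unadjusted p below 0.05. NTH1 was at 0.50 and 0.80, a mean of 0.65 ± 0.20 (adjusted p = 0.137), at the higher dose. At the lower dose it was at 0.26 and 0.87, a mean of 0.56 ± 0.20 (adjusted p = 0.318). NTH1 was thus above 0 on all 8 arrays of the dyes at 90 min. At 0.02 mg/ml of congo red it passed with array weights and with the arrays of congo red alone (adjusted p = 0.00248 and 0.0398). At 0.1 mg/ml it passed with array weights, with the arrays of congo red alone, with uncentred values and in a fit of 34 arrays (adjusted p = 0.04, 0.0166, 0.0441 and 0.0346). NTH2 was at 0.88 and −0.04 after calcofluor white at 0.1 mg/ml, a mean of 0.42 ± 0.16 (adjusted p = 0.0828), and the fit without replicate 2 gave 0.81. At 0.02 mg/ml it was at 0.54 and 0.29, also a mean of 0.42 ± 0.16 (adjusted p = 0.0994). The replicates disagreed at the higher dose and were both above 0 at the lower. After congo red NTH2 was at 0.04 and 0.05 at 0.1 mg/ml and at 0.35 and −0.14 at 0.02 mg/ml. TSL1 spots were at −0.02 and −1.33 after congo red at 0.1 mg/ml (adjusted p = 0.481).

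The other genes stayed near 0 after 90 min of the dyes. Over the dye conditions tested at that time, the means were 0.02 to 0.24 for TPS1, −0.03 to 0.27 for TPS2 and −0.26 to 0.07 for TPS3. They were −0.06 to 0.07 for PGM2, 0.09 to 0.18 for UGP1 and −0.06 to 0.27 for ATH1. Neither the synthase genes nor the supply genes passed in any of these conditions. TPS3 after 0.02 mg/ml of calcofluor white, at −0.15 and −0.38 (adjusted p = 0.14), passed with uncentred values (−0.40, adjusted p = 0.0248), where centring moved the median of all genes by more than 0.1.

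Several members differed between the replicates in 1 direction across conditions. NTH1 was lower in replicate 1 than in replicate 2 in 17 of 18 conditions. TPS3 and PGM2 were higher in replicate 1 in 17 of 18 each, and UGP1 in 15 of 17. Their dye terms were 0.14, 0.15 and 0.12 (adjusted p = 9.87e-05, 9.34e-05 and 0.00118). The terms of ATH1 (−0.11, adjusted p = 0.0139), TSL1 (0.19, adjusted p = 0.0297) and NTH2 (0.09, adjusted p = 0.046) passed as well. The terms of TPS1 (−0.07, adjusted p = 0.0764) and TPS2 (0.01, adjusted p = 0.874) did not pass. Over all genes the term passed for 3404 of 5391, so it is no feature of these members. Since dye and replicate are 1 factor, labelling and culture cannot be told apart in these terms.

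**Figure D3:**
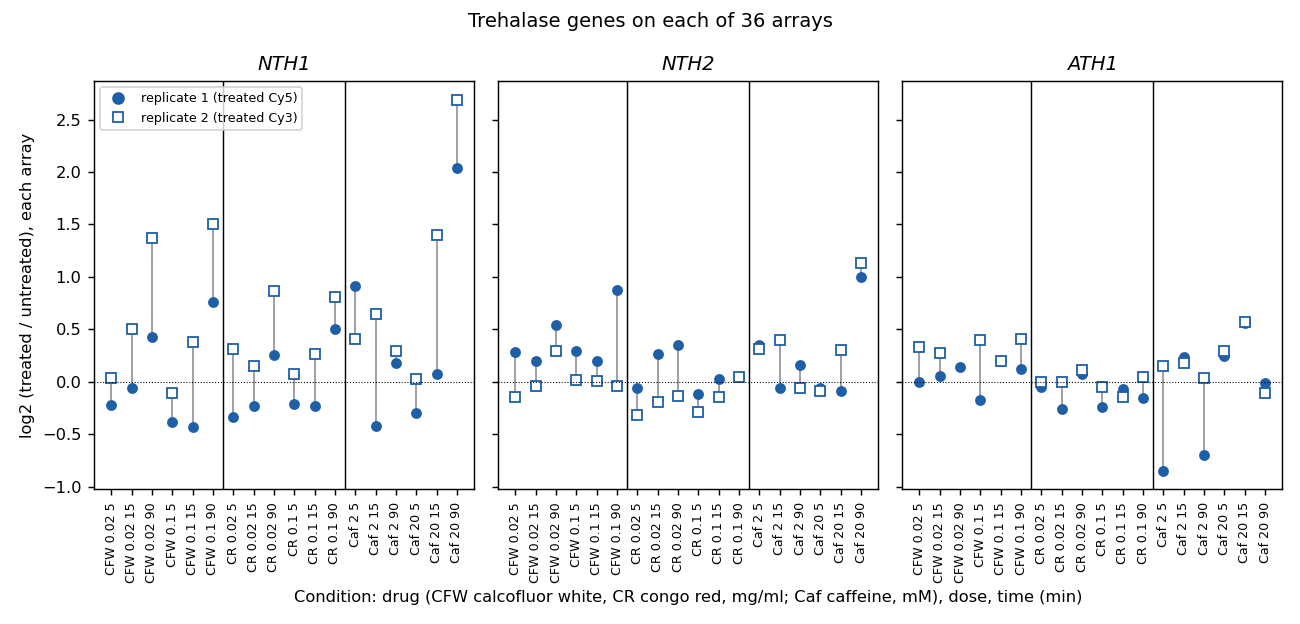
Log2 ratio of NTH1, NTH2 and ATH1 on every array by condition, with replicates 1 and 2 marked apart. NTH1 lies above 0 on all 90 min arrays and at 2.04 and 2.69 after caffeine 20 mM, NTH2 reaches 0.999 and 1.13 there, and ATH1 lies at −0.01 and −0.10.

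The early dye conditions showed no calls. Over 8 conditions at 5 and 15 min, 71 member values were tested by limma, 0 passed and 0 had an unadjusted p below 0.05, and the means lay between −0.24 and 0.29. Calls over all genes were also few there. They were 0.0% at 5 min and 0.0% at 15 min for 0.02 mg/ml of calcofluor white, and 0.0% and 0.0197% for 0.1 mg/ml. For congo red they were 0.0% and 0.0187% at 0.02 mg/ml, and 0.0187% and 0.0% at 0.1 mg/ml. NTH1 lay between −0.43 and 0.50 on these arrays, and TPS2 had a value on 1 array of calcofluor white 0.1 mg/ml 15 min and was not tested there.

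Caffeine at 20 mM was set against the mean of both dyes at 0.1 mg/ml after 90 min, where 29.6% of all genes differed. NTH1 was higher after caffeine by 1.47 ± 0.24 (adjusted p = 0.000142), NTH2 by 0.84 ± 0.19 (adjusted p = 0.00285) and UGP1 by 0.86 ± 0.15 (adjusted p = 0.000252). The other 6 genes did not pass, with differences between −0.23 and 0.29. With arrays scaled to one spread none of the 3 passed (NTH1 0.58, NTH2 0.42, UGP1 0.46), and without caffeine 20 mM 90 min replicate 2 NTH2 (0.67) lost the call. The comparison of compounds is at the doses used, which are not matched in effect.

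Congo red minus calcofluor white at 0.1 mg/ml and 90 min, the 1 pair of compounds at a shared dose, gave 0 calls among the 9 genes. Limma called 0.288% of all genes there, 15 in number, and 627 had an unadjusted p below 0.05, none of them a member. The NTH1 difference was −0.48, with a 95% interval from −1.06 to 0.10. The interval ran from −0.84 to 0.09 for NTH2 and from −1.81 to 0.05 for TSL1. Each of these intervals includes 0 but reaches down to −0.84 or lower, so the compounds are shown neither to differ in these genes nor to act alike.

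The TSL1 spots need separate treatment. Ty1 and Ty2 retrotransposons encode Gag, the protein of their virus-like particle, and 36 of the 37 Gag genes listed were measured. Over the 36 arrays 17 of the 20 genes with the smallest root-mean-square difference from TSL1, among 5382 compared, were Ty Gag genes, against 0 of 20 for each other member. TSL1 lay within the range of the Ty Gag genes on 36 of 36 arrays, at a median distance of 0.09 from their median, where the other members lay at 0.26 to 0.76. That range was wide, from 0.03 to 2.13 on caffeine 20 mM 5 min replicate 1 for example. Arrays within it were not counted for the other members. After caffeine 20 mM TSL1 was at 0.77, 1.14 and 0.05 at 5, 15 and 90 min, and the Ty Gag median at 1.06, 1.198 and −0.35. After congo red 0.1 mg/ml at 90 min they were at −0.67 and −0.66. The list of Ty Gag genes was drawn up after these values had been seen, and what the TSL1 spots measure was not tested. TSL1 values are therefore given as spot values, and none supports a statement on the synthase complex.

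**Figure D4:**
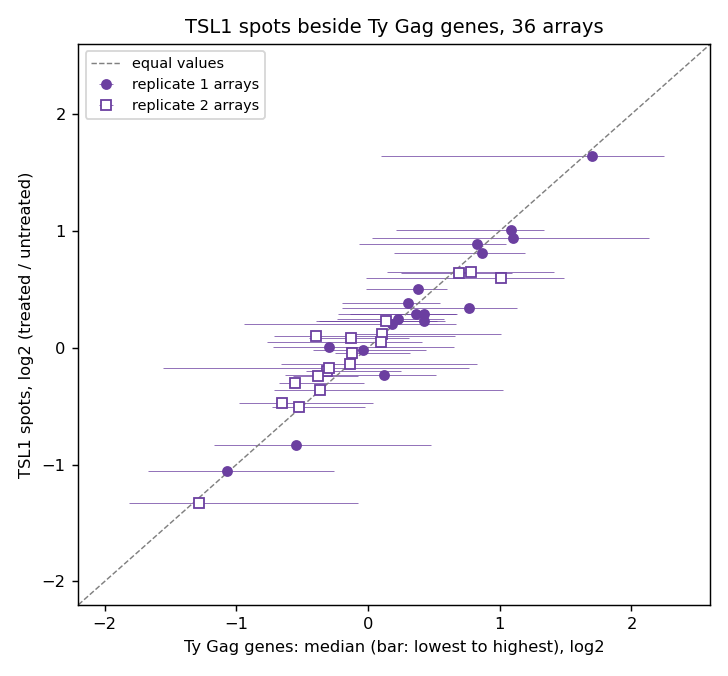
Log2 ratio of the TSL1 spots (vertical axis) against the median of the Ty Gag genes (horizontal axis, bars from lowest to highest gene), 1 point per array; filled dots are replicate 1, open squares replicate 2, and the dashed line marks equal values. The points lie along that line, at a median distance of 0.09.

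The enzymes next to trehalose in sugar metabolism were compared as lists. Of 11 tested genes of glucose phosphorylation and glycogen metabolism, 7 rose and 1 fell after caffeine 20 mM at 15 min (median 0.49, 0.02 over all genes), and 5 rose and 2 fell at 90 min (median 0.11, −0.03 over all genes). The shares called over all genes were 31.1% and 44.4%. GPH1, glycogen phosphorylase, was 1.22 ± 0.12 at 15 min and 1.90 ± 0.12 at 90 min. GSY2, glycogen synthase, was 1.02 ± 0.15 and 0.81 ± 0.15. Hexokinase HXK1 rose by 1.82 ± 0.17 at 15 min, and glucokinase GLK1 rose by 0.86 ± 0.16 and 0.72 ± 0.16 at the 2 times. PGM1, the paralog of PGM2, fell by 0.60 ± 0.12 at 90 min (adjusted p = 0.00027). After calcofluor white 0.1 mg/ml at 90 min GLK1 was the 1 of 11 that rose, by 0.93 ± 0.16 (adjusted p = 0.000456), with 14.7% called over all genes.

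Regulators of trehalose metabolism moved in both directions. Of 12 tested, 5 rose and 1 fell at either time of caffeine 20 mM (medians 0.36 and 0.28), where 31.1% of all genes were called at 15 min and 44.4% at 90 min. The count at 90 min is close to that share. MSN4, a stress transcription factor, was 1.22 ± 0.18 at 15 min and 1.03 ± 0.18 at 90 min. GIS1, a stress and nutrient transcription factor, rose by 0.96 ± 0.12 at 15 min. BMH2, encoding an adaptor protein that binds phosphorylated Nth1, rose by 1.14 ± 0.14 at 90 min, and DCS1, a scavenger decapping enzyme, by 0.96 ± 0.14. RIM15, a kinase above the stress factors, fell by 0.82 ± 0.11 at 90 min and by 0.44 ± 0.11 after calcofluor white 0.1 mg/ml (adjusted p = 3.71e-06 and 0.00689). Among stress element genes, 5 of 20 rose and 1 fell at 15 min of caffeine 20 mM (median 0.35), and 13 of 21 rose and 1 fell at 90 min (median 0.91). The called share at 15 min is near the 31.1% over all genes, and the count at 90 min stands beside 44.4%. HSP12, a membrane-associated stress protein gene, rose by 3.58 ± 0.18 at 90 min and GRX1, a glutaredoxin gene, by 1.90 ± 0.18.

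For the 4 members with the widest range, the genes with the smallest root-mean-square difference over the 18 conditions were named, among 5238 genes with a value in every condition. NTH1 was nearest to PBI2, an inhibitor of vacuolar proteinase B, at 0.22, PEP4, vacuolar proteinase A, at 0.24, and GRX1 at 0.24, against a median of 0.76 over all genes. PBI2 was 0.81, 2.64 and 0.68 in caffeine 20 mM at 15 and 90 min and calcofluor white 0.1 mg/ml at 90 min, beside 0.73, 2.37 and 1.13 for NTH1. NTH2 was nearest to CMG1 (0.11), HOR7 (0.12) and APE3, a vacuolar aminopeptidase (0.13), against 0.39. UGP1 was nearest to THI22, GSY2 and SDS22, each at 0.14, against 0.42. The nearest genes of TSL1 were the Ty Gag genes YLR227W-A (0.12), YOR343W-A (0.13) and YDR210W-A (0.13), against 0.51.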

How the data were processed

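The authors deposited natural log (ln) ratios for 15488 spots on each of 36 arrays, with a mean of 0 per array, as read from the values. The sources used here name no scanner, background correction or normalization. The sign was assumed to be treated over untreated in both dye orientations. Spots at the repeated floor value of an array, 1.61% to 16.1% of named spots, were treated as missing. Division by 0.6931 turned ln into log2, the mean of a gene's spots was taken, and each array's median was subtracted. Columns without a sample numbered 0.

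A model with 18 conditions plus dye, the latter serving as replicate block, was fitted per gene with limma 3.58.1 in R 4.3.3, using all 36 arrays. Genes with a value on at least 24 arrays and on both arrays of a condition were tested, on 17 residual and 3.67 prior degrees of freedom, and the median SE was 0.166. Precision is limited by having 2 arrays a condition. The block was kept because deviations of same-numbered arrays correlated above 0.1 in 153 of 153 pairs of conditions. P values were Benjamini-Hochberg adjusted over all genes. The procedure was tested on simulated data. Other tools were python 3.11.15, numpy 2.4.6, pandas 2.3.3, scipy 1.17.1 and matplotlib 3.10.9.

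The members and gene lists were chosen with earlier results of these data known. Named were all members, up to 4 genes per list with the smallest p, and for the 4 widest members the 3 genes nearest in pattern. A list of Ty Gag genes was added after their values were seen, for description. Titles were followed where labels disagreed. The alternatives were other spot, centring, scaling, weighting, filter, block and adjustment choices, leaving out arrays, and a turned array sign.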

Additional observations from a re-analysis of the deposited data

Results flagged for a closer look

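In all, 5 genes were singled out because their change after caffeine 20 mM differed between 90 and 15 min in a direct test of the difference. NTH1 stood higher at 90 min by 1.63 (1.6312) and NTH2 by 0.96 (0.9606). TPS2 stood lower by −0.55 (−0.5541), ATH1 by −0.62 (−0.6203) and PGM2 by −0.51 (−0.5073). The NTH1 difference kept its direction and passed under 15 of 16 alternatives, with the scaled arrays as the exception. NTH2 passed under 12 of 16, TPS2 under 4 of 15, ATH1 under 7 of 15 and PGM2 under 7 of 16.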

How the results depend on the processing

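Over 204 member values and 2888 alternative values, 85 lost and 16 gained a call, and 1 reversed: ATH1 after caffeine 2 mM for 5 min was 0.50 (0.4974) with the sign of replicate 1 turned. Of 24 calls, 6 passed under every alternative tried, namely TPS2 and UGP1 at 15 min and NTH1, NTH2 and UGP1 at 90 min of caffeine 20 mM, and NTH1 between doses at 90 min. The counts of members called varied as follows. For caffeine 20 mM at 5 min array weights gave 1 in place of 0, that of the TSL1 spots. The count of 7 at 15 min fell to 6 with array weights, the first spot and uncentred values, and to 5 with floored spots kept and the last spot. At 15 min the count of 7 became 2 with Holm's adjustment, 4 with scaled arrays, 4 with genes on all arrays, 3 with no replicate block and 2 with the arrays of caffeine alone, and 3 to 4 when a replicate was left out. Calcofluor white 0.1 mg/ml at 90 min gave 0 in place of 1 with Holm and 1 to 2 without a replicate. Congo red 0.1 mg/ml at 90 min gave 1 in place of 0 with array weights, in the fit of 34 arrays, with its own arrays and uncentred. Between doses at 15 min the count of 1 became 0 with Holm, scaled arrays, floored spots kept, genes on all arrays, the last spot, no replicate block and caffeine arrays alone, and 0 to 1 without an array; at 90 min 3 became 1 with scaled arrays. Between 90 and 15 min, 5 became 1 with Holm, 2 with array weights, 0 with scaled arrays, 3 with genes on all arrays, and 2 with the last spot, with no replicate block and with caffeine arrays alone, and 1 to 4 without an array. Against the dyes 3 became 0 with scaled arrays. In the other 13 conditions 1 became 0 with Holm, no replicate block and 34 arrays, 2 with array weights, floored spots kept, genes on all arrays, drug arrays alone, the turned sign and uncentred values, and 0 to 5 without an array. Genes on all arrays leaves out TPS2, ATH1 and UGP1 by construction; other causes were not tested. The fit of 34 arrays, chosen after seeing the data, leaves out the pair of arrays that stood apart. Uncentred values moved the median of all genes by over 0.1 in 1 condition, calcofluor white 0.02 mg/ml at 90 min.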
